A study of Mus musculus with 8 samples.

Results

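Glycerol 3-phosphate is a product of the enzyme encoded by Gpcpd1, and 9 enzyme genes that make this metabolite or build lipid from it were followed in quadriceps muscle of mice with a muscle knockout of Gpcpd1. The 9 were found by mouse gene symbol among the 54532 Ensembl genes of each count table, and each symbol matched 1 gene. They are Gpd1, Gpd1l and Gpd2 (glycerol phosphate dehydrogenases), Gpam (a glycerol phosphate acyltransferase), Agpat1, Agpat2 and Agpat3 (lysophosphatidate acyltransferases) and Lpin1 and Lpin2 (phosphatidate phosphatases). All 9 passed the filter on low counts.

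Knockout mice (4 libraries) were Gpcpd1 Flox/Flox and carried the Mck Cre transgene. Control mice (4 libraries) were Gpcpd1 Flox/Flox and Cre negative. All mice were 3 months old and ate chow, and the floxed allele was common to both groups, so Cre itself changed together with the loss of Gpcpd1. Mck is the muscle creatine kinase promoter, which is active in striated muscle fibres, so other cell types in the tissue are outside its range. The labels do not say whether each library came from a different mouse, so p-values measure the spread between libraries, which may be technical. RNA was read by 3′ mRNA sequencing (QuantSeq FWD), in which reads come from near the end of polyadenylated transcripts so a longer transcript does not by itself give more reads. Levels below are CPM (counts set against each library's total after TMM normalization). On this assay a comparison of CPM between genes needs no length correction, but it still depends on how reads were assigned to each gene.

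In the glycerol phosphate shuttle, the cytosolic dehydrogenase reduces dihydroxyacetone phosphate to glycerol 3-phosphate with electrons from NADH, and the mitochondrial dehydrogenase oxidizes it again and passes the electrons to the respiratory chain. In lipid synthesis the same metabolite is acylated to lysophosphatidate, acylated again to phosphatidate, and then dephosphorylated by a lipin to diacylglycerol, the precursor of triglyceride and of the main phospholipids. Fast glycolytic muscle is known for high activity of the cytosolic dehydrogenase.

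Knockout libraries held 4806806 to 5405999 reads and control libraries 4404116 to 5183079, so that 3 reads correspond to 0.557 to 0.646 CPM. Gpcpd1 itself stood at 30.4, 35.7, 35.9 and 38.6 CPM in knockouts 1 to 4, against 158.5, 156.3, 134.7 and 149.4 CPM in controls 1 to 4 (log2 fold change -2.09, SE 0.10, edgeR adjusted p = 2.13e-13). The sources used here do not name the floxed exons, so these 3′ reads check the transcript's end and not the deletion. Skeletal muscle markers were abundant in every library, and Acta1 alone held 35010 to 48070 CPM. Xist had at most 1 read and the Y-linked gene Ddx3y had 647 to 885 reads in every library. Libraries differed in slow fibre markers: the 7 markers summed to 171.9 to 457.5 CPM in knockouts and 24.8 to 69.7 CPM in controls, with the highest value in knockout 1. Most of this sum was the light chain gene Myl3, the 1 called of 3 tested, at 148.1 to 398.4 CPM in knockouts and 7.75 to 33.5 CPM in controls. The other 6 summed to 59.1, 20.6, 23.8 and 22.8 CPM in knockouts 1 to 4, against 17.0, 36.3, 18.8 and 31.5 CPM in controls 1 to 4, and overlapped; Atp2a2, a calcium pump gene of slow fibres, was at -0.14 on the log2 scale (edgeR adjusted p = 0.647). The part of this difference in the results below was not tested.

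Of the 9 enzyme genes, 2 fell and 0 rose in edgeR's quasi-likelihood test (threshold: adjusted p of 0.05). At an unadjusted p under 0.05, 2 were higher (Gpam and Agpat3) and 2 lower, while DESeq2 and limma voom each called 0 higher and 2 lower. The genes that fell were Lpin1 and Agpat1, whose knockout means were 75.3% and 77.1% of the control means. The share of 22.2% called stands beside 15.7% of all 10691 tested genes called in either direction, and 6.8% called lower, so the count is not far from the background. The shuttle genes Gpd1 and Gpd2, and Gpd1l, did not pass the test. The median log2 fold change was 0.02 over the 9 genes and 0.008 over all tested genes, with 5 of the 9 above 0 and 4 below.

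An annotated promoter of each gene that fell is shown, since these are the enzyme genes the results turn on; reads from the 3′ end do not show which transcript start was used. RefSeq promoter windows of GRCm38.p6, each from 250 bases before to 50 bases after a transcript start, matched 8 of the 9 genes with 13 windows, and Gpd1 had no entry. Both windows are printed in the direction of transcription, with any AGGTCA (a core motif of many nuclear receptors) or CACGTG (an E-box) on either strand in capitals. The Lpin1 window is chr12:16610917-16611216, minus strand, and the Agpat1 window is chr17:34605611-34605910, plus strand, the closer to the annotated gene start of its 2 windows.
Lpin1: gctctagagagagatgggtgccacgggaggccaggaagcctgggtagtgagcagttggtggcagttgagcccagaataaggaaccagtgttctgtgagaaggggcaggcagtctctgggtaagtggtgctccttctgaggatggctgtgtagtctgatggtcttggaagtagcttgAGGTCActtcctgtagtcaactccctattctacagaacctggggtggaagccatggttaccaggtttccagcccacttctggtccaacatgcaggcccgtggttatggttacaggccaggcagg
Agpat1: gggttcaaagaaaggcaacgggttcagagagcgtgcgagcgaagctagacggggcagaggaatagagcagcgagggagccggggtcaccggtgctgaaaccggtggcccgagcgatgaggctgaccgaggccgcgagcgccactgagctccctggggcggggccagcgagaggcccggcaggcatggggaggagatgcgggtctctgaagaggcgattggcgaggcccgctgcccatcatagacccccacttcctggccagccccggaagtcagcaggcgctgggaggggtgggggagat
The Lpin1 window held AGGTCA once, starting at base 177 of the 300, and no CACGTG. The printed Agpat1 window held neither, and the other Agpat1 window held AGGTCA once. AGGTCA occurred in 16.3% and CACGTG in 7.15% of 32851 windows of this length, and in 3 and 2 of the 13 windows of these enzyme genes. A match of letters is a description and not a binding site. GC content was 55.3% in the Lpin1 window and 68.0% in the printed Agpat1 window.

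**Figure D1:**
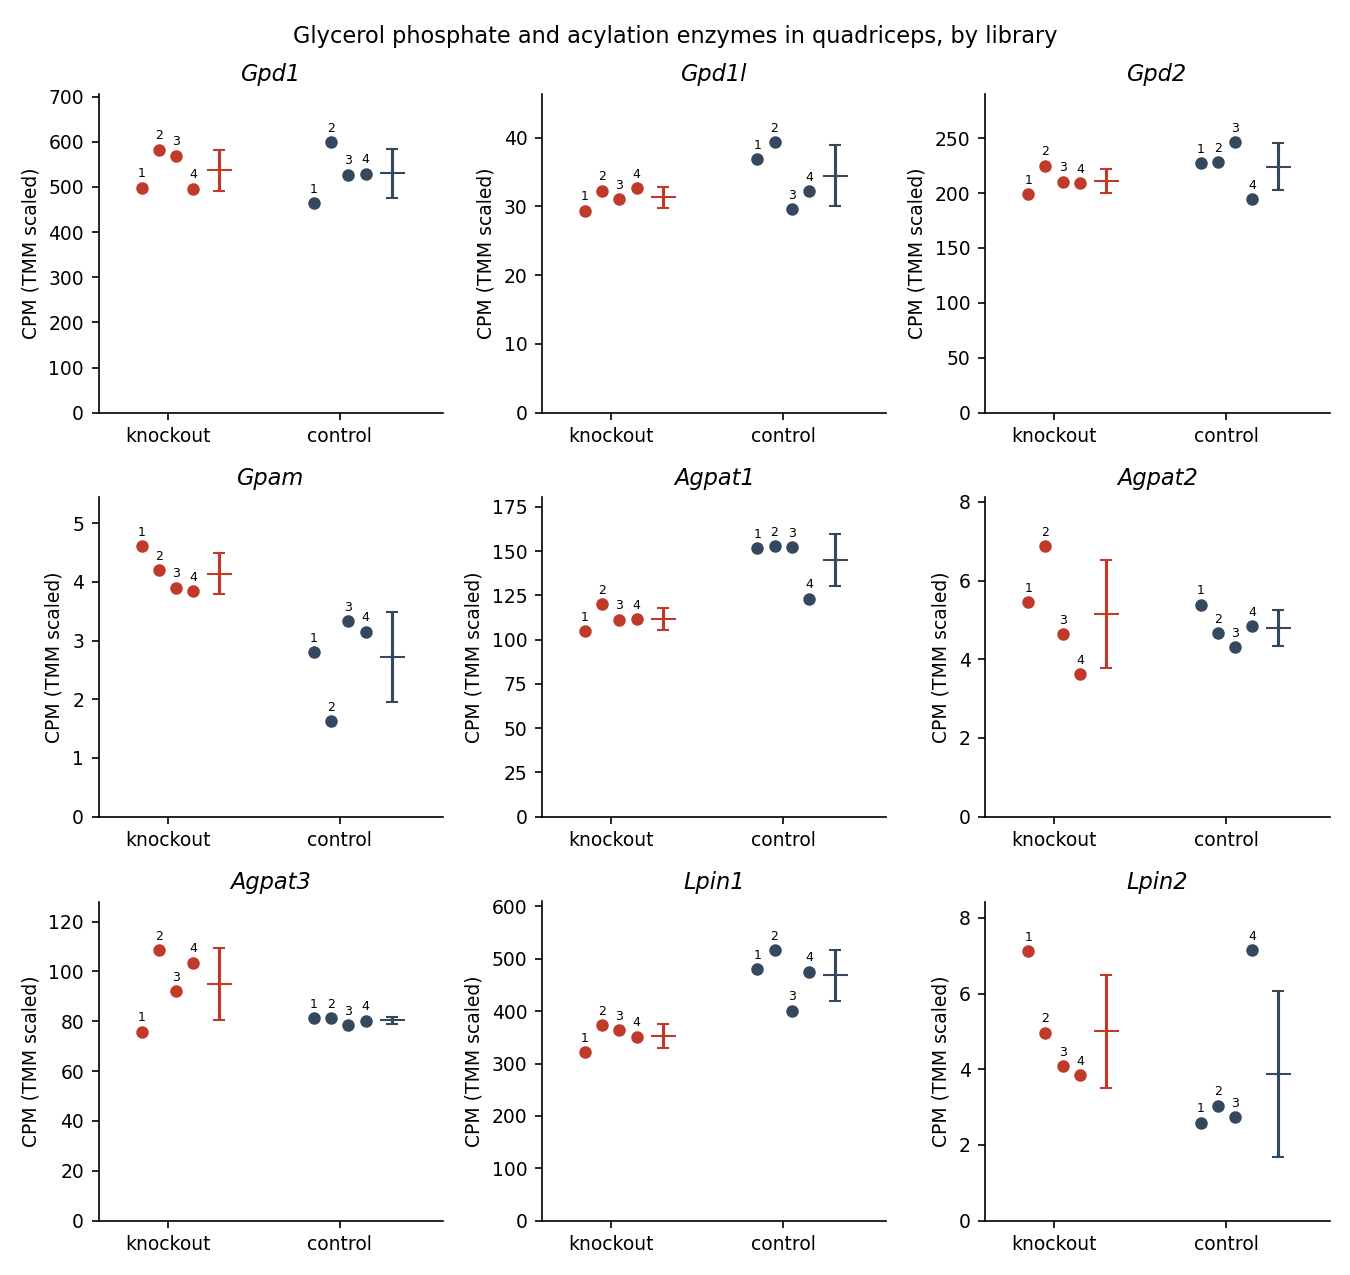
Level of each of the 9 enzyme genes (CPM after TMM scaling, linear axes from 0) in 4 knockout (red, left) and 4 control (dark, right) libraries, numbered by replicate, with mean and SD beside the points. The knockout points lie below the control points for Lpin1 and Agpat1 and above them for Gpam, and the groups overlap for the other 6 genes.

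The levels ordered the 9 genes into an abundant and a scarce set. Gpd1 was highest, at a mean of 533.3 CPM over the 8 libraries, followed by Lpin1 at 410.4, Gpd2 at 217.4, Agpat1 at 128.4, Agpat3 at 87.7 and Gpd1l at 32.9 CPM. Agpat2, Lpin2 and Gpam were near the bottom at 4.97, 4.44 and 3.43 CPM. In control libraries the ranges of Gpd1 and Lpin1 overlapped, whereas in knockout libraries every Gpd1 value was above every Lpin1 value. Agpat1 and Agpat3 overlapped in knockout libraries and not in control libraries. The 3 scarce genes were below Gpd1l in every library. Among them the range of Lpin2 overlapped those of Agpat2 and Gpam in both groups, while Agpat2 overlapped Gpam in knockout libraries and was above it in every control library. Agpat1 and Agpat2 share 3′ exonic bases with genes on the opposite strand, and the strand setting of the counting is not known. The place of Agpat2 in this order is therefore uncertain.

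The first question was whether RNA of the shuttle enzymes differed with the knockout of Gpcpd1, whose enzyme yields glycerol 3-phosphate. Levels of the metabolite are not part of these data. Gpd1 (ENSMUSG00000023019, GRCm38 chromosome 15, 99717515 to 99725005, plus strand) encodes the cytosolic NAD-dependent dehydrogenase. It stood at 498.8, 582.8, 569.7 and 495.8 CPM in knockouts 1 to 4, against 463.9, 599.2, 527.5 and 529.0 CPM in controls 1 to 4. The highest and the lowest of the 8 values were both in controls, and the groups overlapped. Its log2 fold change was 0.02 (SE 0.09, edgeR adjusted p = 0.925), and the 95% interval ran from -0.17 to 0.20, a fold of 0.891 to 1.15.

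Gpd2 (ENSMUSG00000026827, chromosome 2, 57237635 to 57370719, plus strand) encodes the FAD-linked enzyme of the inner mitochondrial membrane that completes the shuttle. It stood at 198.8, 225.0, 210.5 and 208.8 CPM in knockouts 1 to 4, against 227.2, 228.2, 246.3 and 194.4 CPM in controls 1 to 4. The lowest library of all was control 4, inside an otherwise higher group. Gpd2 had a log2 fold change of -0.09 (SE 0.09, edgeR adjusted p = 0.551), with a 95% interval of -0.27 to 0.09.

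Gpd1l (ENSMUSG00000050627, chromosome 9, 114899341 to 114933987, minus strand) encodes a cytosolic relative of Gpd1 best known, in humans, for its effect on the cardiac sodium channel. It stood at 29.3, 32.3, 31.0 and 32.6 CPM in knockouts 1 to 4, against 36.8, 39.3, 29.6 and 32.2 CPM in controls 1 to 4. Controls 1 and 2 were above all knockouts and the other controls were among them. For Gpd1l it was -0.14 on the log2 scale (SE 0.11, edgeR adjusted p = 0.461; 95% interval -0.37 to 0.09). Gpd1 supplied nearly all reads of the cytosolic pair, 94.5% ± 0.459 in knockouts and 93.9% ± 0.883 in controls (SD, n = 4 each).

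Together the 3 dehydrogenases summed to 778.8 ± 55.4 CPM in knockouts and 788.4 ± 60.8 CPM in controls (SD, n = 4 each), and the groups overlapped. The ratio of Gpd1 to Gpd2 reads, which does not depend on the scaling between libraries, was 2.51, 2.59, 2.71 and 2.37 in knockouts 1 to 4, against 2.04, 2.63, 2.14 and 2.72 in controls 1 to 4. The control ratios fell in a lower pair and a higher pair, and all knockout ratios lay within their range. The mean log2 ratio was 0.11 higher in knockouts (exact two-sided permutation p = 0.400, adjusted p = 0.533 over the 4 ratios tested), and that of Gpd1l to Gpd1 was 0.15 lower (difference -0.15, exact permutation p = 0.257, adjusted p = 0.514). The smallest p that 4 against 4 libraries allow is 0.0286. After adjustment over the 4 ratios, a ratio at this p would still miss the threshold unless most of the 4 reached it. The adjusted p of each ratio, here and below, therefore cannot show that the ratio was unchanged.

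Genes with the profile most like that of Gpd1 were sought by the mean absolute distance of log2 CPM over the 8 libraries, after centring each gene. The closest were Pip4p2 (0.0469), Zfp655 (0.0470) and Dph5 (0.0486), and for Gpd2 they were Clmp (0.0335), Denr (0.0405) and Rps21 (0.0409). All 6 had log2 fold changes between -0.08 and 0.02 and none passed the edgeR test. This follows from picking them by likeness to Gpd1 and Gpd2 in the same libraries and is not a separate result.

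**Figure D2:**
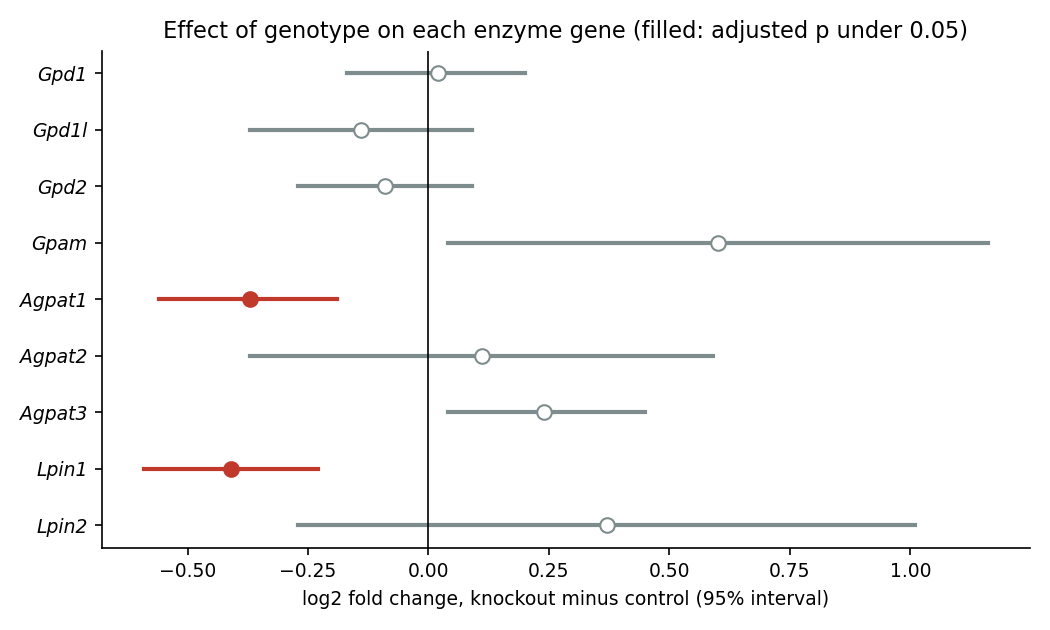
Log2 fold change of each enzyme gene, knockout minus control, with its 95% interval from the edgeR fit. Filled red points passed an adjusted p of 0.05 (Lpin1 at -0.41 and Agpat1 at -0.37), and the intervals of Gpam, Agpat2 and Lpin2, with few reads, are the widest.

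The second question concerned the acylation steps. Gpam (ENSMUSG00000024978, chromosome 19, 55067268 to 55127238, minus strand) encodes the acyltransferase of the outer mitochondrial membrane that starts glycerolipid synthesis. It had 22, 22, 21 and 18 reads in knockouts 1 to 4, against 13, 8, 17 and 15 reads in controls 1 to 4, or 4.14 ± 0.351 and 2.73 ± 0.768 CPM (SD, n = 4 each). Every knockout value was above every control value, but the gene did not pass the test over all genes (log2 fold change 0.60, SE 0.27, 95% interval 0.04 to 1.16, unadjusted p = 0.0377, edgeR adjusted p = 0.147). Non-overlapping groups were found in 3 of the 9 enzyme genes (Gpam, Agpat1 and Lpin1) and in 19.2% of all tested genes. Of the 3, only Gpam was higher in knockouts, against 10.3% of all tested genes, and Agpat1 and Lpin1 were lower, against 8.92%.

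Gpam held a small part of the reads of its family in this muscle. Of the reads of Gpam, Gpat2, Gpat3 and Gpat4, the microsomal enzyme gene Gpat4 took 91.9% ± 0.949 in knockouts and 92.8% ± 2.38 in controls, and Gpam took 4.29% ± 1.02 and 3.01% ± 1.08 (SD, n = 4 each). The 4 genes together summed to 98.8 ± 13.8 CPM in knockouts and 93.8 ± 14.6 CPM in controls, and the groups overlapped.

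Agpat1 (ENSMUSG00000034254, chromosome 17, 34604262 to 34613449, plus strand) encodes an acyltransferase of the endoplasmic reticulum that turns lysophosphatidate into phosphatidate. It fell to 104.7, 119.9, 111.3 and 111.4 CPM in knockouts 1 to 4, against 151.8, 152.8, 152.3 and 123.2 CPM in controls 1 to 4. Controls 1 to 3 were nearly equal, control 4 was closest to the knockouts, and the groups did not overlap. The log2 fold change was -0.37 (SE 0.09, 95% interval -0.56 to -0.19, edgeR adjusted p = 0.00454). At its 3′ end, where the reads come from, Agpat1 shares 101 exonic bases with Egfl8 on the opposite strand, and no source used here gives the strand setting of the counting. Egfl8 itself had 29 reads in the 4 knockouts and 18 in the 4 controls, against 2249 and 2823 reads of Agpat1.

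Agpat3 (ENSMUSG00000001211, chromosome 10, 78269178 to 78352489, minus strand) encodes a relative that favours polyunsaturated acyl chains. It stood at 75.8, 108.5, 92.2 and 103.5 CPM in knockouts 1 to 4, against 81.2, 81.3, 78.5 and 80.3 CPM in controls 1 to 4. Controls were tightly grouped, 3 knockouts were above all of them, and knockout 1, the library with the most slow fibre marker reads, was below all of them. The log2 fold change was 0.24 (SE 0.10, 95% interval 0.04 to 0.45, edgeR adjusted p = 0.105), so no change was called. Without knockout 1 it was 0.33 and passed the threshold (edgeR adjusted p = 0.0126).

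Agpat2 (ENSMUSG00000026922, chromosome 2, 26593057 to 26604417, minus strand) is the family member whose loss causes lipodystrophy in humans. It was scarce here, with 26, 36, 25 and 17 reads in knockouts 1 to 4, against 25, 23, 22 and 23 reads in controls 1 to 4. The knockouts enclosed the controls. Its log2 fold change was 0.11 (SE 0.23, 95% interval -0.37 to 0.59, edgeR adjusted p = 0.809). Its 3′ end shares 64 exonic bases with Egfl7 on the opposite strand, an endothelial gene with 8328 reads in the 8 libraries, so its count is uncertain. Markers of adipocytes, cells known to express Agpat2 and Gpd1, summed over 7 genes to 314.2 to 393.0 CPM in knockouts and 224.4 to 424.3 CPM in controls, with 0 of 6 tested markers called by edgeR, DESeq2 or limma voom and 0 at an unadjusted p under 0.05. The part of adipocytes in the reads of both genes was not tested. Adiponectin (Adipoq) averaged 23.0 CPM in both groups. In bulk tissue, fewer cells of a type and less RNA per cell cannot be told apart.

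Within the AGPAT family the makeup differed between the groups. Agpat1 held 48.4%, 45.3%, 45.7% and 44.5% of the reads of Agpat1 to Agpat5 in knockouts 1 to 4, against 56.1%, 56.1%, 56.1% and 50.6% in controls 1 to 4. Agpat3 held 35.0%, 41.0%, 37.9% and 41.4% in knockouts 1 to 4, against 30.0%, 29.9%, 28.9% and 33.0% in controls 1 to 4. Neither share overlapped between the groups, and neither was tested. Both are parts of 1 total, so a lower share of Agpat1 by itself raises that of Agpat3. The CPM of Agpat3 overlapped between the groups and was not called. The ratio of Agpat1 to Agpat3 reads was 1.08 to 1.38 in knockouts and 1.53 to 1.94 in controls, a mean log2 difference of -0.60, and since this pair was picked after its values were seen it was given no test. The 5 genes together summed to 243.6 ± 20.2 CPM in knockouts and 264.5 ± 14.1 CPM in controls (SD, n = 4 each), with overlap. The log2 ratio of Agpat2 to Agpat3, which was planned, differed by -0.16 (exact permutation p = 0.600, adjusted p = 0.600).

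**Figure D3:**
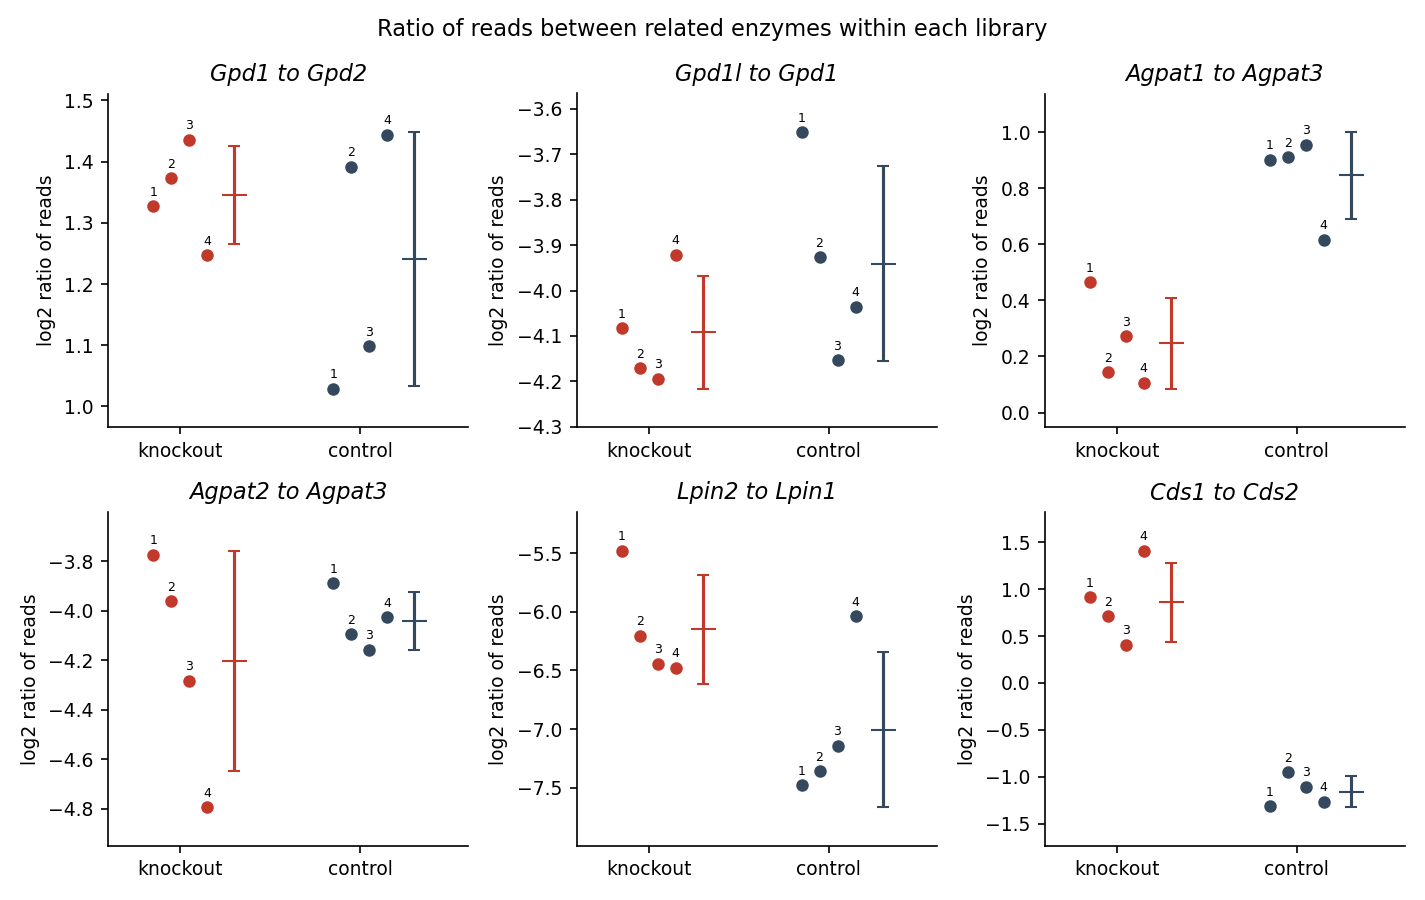
Log2 ratio of reads between related enzyme genes within each library (vertical axes do not start at 0), for 4 knockout (red, left) and 4 control (dark, right) libraries with mean and SD. The groups overlap for Gpd1 to Gpd2, Gpd1l to Gpd1, Agpat2 to Agpat3 and Lpin2 to Lpin1, and do not overlap for Agpat1 to Agpat3 and Cds1 to Cds2, which were chosen after their values were seen.

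The third question concerned the lipins. Lpin1 (ENSMUSG00000020593, chromosome 12, 16535669 to 16610966, minus strand) encodes the main phosphatidate phosphatase of muscle, which is also known to act in the nucleus as a transcriptional coactivator. It fell to 321.8, 373.0, 363.8 and 351.6 CPM in knockouts 1 to 4, against 480.1, 516.5, 401.2 and 475.6 CPM in controls 1 to 4. The highest knockout was below the lowest control, control 3. The log2 fold change was -0.41 (SE 0.09, 95% interval -0.59 to -0.23, edgeR adjusted p = 0.00186), and it rested on 7095 reads in knockouts and 9089 in controls.

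Lpin2 (ENSMUSG00000024052, chromosome 17, 71182560 to 71249817, plus strand) encodes a related phosphatase whose loss causes an inflammatory bone disease in humans. It had 34, 26, 22 and 18 reads in knockouts 1 to 4, against 12, 15, 14 and 34 reads in controls 1 to 4. Knockouts were above 3 of the controls, while control 4 equalled knockout 1 in reads, so the groups overlapped. Lpin2 had a log2 fold change of 0.37 (SE 0.31, 95% interval -0.27 to 1.01, edgeR adjusted p = 0.476). Without control 4 it was 0.83 and without knockout 1 it was 0.15, and neither passed (edgeR adjusted p = 0.0609 and 0.811).

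Since Lpin1 held 98.0% ± 0.615 of lipin reads in knockouts and 98.9% ± 0.420 in controls (SD, n = 4 each), the family total followed it. Lpin1, Lpin2 and Lpin3 summed to 359.7 ± 21.1 CPM in knockouts and 473.8 ± 48.9 CPM in controls, without overlap. The log2 ratio of Lpin2 to Lpin1 was 0.85 higher in knockouts (exact permutation p = 0.114, adjusted p = 0.457), and the groups overlapped through control 4. Of the lipin regulators, Ctdnep1 and Cnep1r1, the subunits of the phosphatase that activates lipins, had log2 fold changes of 0.13 (SE 0.10, edgeR adjusted p = 0.407) and -0.29 (SE 0.22, adjusted p = 0.423). Of the 6 tested genes of that list 0 passed by edgeR, DESeq2 or limma voom and 0 had an unadjusted p under 0.05, and the coactivator gene Ppargc1a stood at 42.8 ± 0.905 CPM in knockouts and 43.5 ± 3.82 CPM in controls.

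The same fit was read for 41 genes in 5 lists of neighbouring steps, of which 34 were tested, 6 were higher and 3 lower. Genes that use the phosphatidate or diacylglycerol made by AGPATs and lipins shared 1 list with genes of later steps toward cardiolipin, such as Ptpmt1. This list held the most calls, 4 higher and 2 lower (Cds2 and Ptpmt1) of 10 tested, with a median log2 fold change of 0.17. Of all tested genes 8.87% were called higher, 6.8% lower and 15.7% in either direction. The lists were chosen with earlier results of these data known, so these counts are a description and not a test. Cds1, which turns phosphatidate into CDP-diacylglycerol, rose to 19.1, 21.0, 15.8 and 26.9 CPM in knockouts 1 to 4, against 7.97, 8.11, 5.68 and 6.94 CPM in controls 1 to 4 (log2 fold change 1.52, SE 0.18, edgeR adjusted p = 1.51e-06). Every knockout was well above every control. Its relative Cds2 fell (-0.53, SE 0.16, adjusted p = 0.0273), with overlap between groups, so that Cds1 held 64.4% ± 6.62 of the reads of the pair in knockouts and 30.8% ± 2.46 in controls (SD, n = 4 each). Cds2 and Ptpmt1 are named beyond the rule for named genes, after their values were seen. The call of Cds2 ended without knockout 1 (edgeR adjusted p = 0.0594), knockout 4 (0.0786), control 1 (0.113) or control 4 (0.0530).

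Dgat2, which completes triglyceride from diacylglycerol, rose to 28.8 ± 2.39 CPM in knockouts, against 20.1 ± 1.51 CPM in controls (SD, n = 4 each; log2 fold change 0.51, edgeR adjusted p = 0.00374), while Dgat1 was at -0.21 (adjusted p = 0.290). Chpt1 (0.31, adjusted p = 0.0139) and Cept1 (0.38, adjusted p = 0.0232), which join diacylglycerol to a phospholipid headgroup, rose as well. The call of Chpt1 ended without knockout 3 (0.0503) or control 3 (0.0767). That of Cept1 ended without knockout 2 (0.0535), knockout 3 (0.123), control 2 (0.0621) or control 3 (0.0876), with DESeq2 (0.0567) and with library totals alone (0.0591). Ptpmt1, a phosphatase of cardiolipin synthesis, fell by the main test (-0.35, adjusted p = 0.0435), but the call was lost in 11 of 17 alternatives. It ended without knockouts 1 to 4 (0.0814, 0.0660, 0.0554 and 0.0964) and without controls 1 to 3 (0.0562, 0.139 and 0.0532). It also ended with DESeq2 (0.0750), limma voom (0.0526), thinned reads (0.0921) and the library number as a covariate (0.0512).

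**Figure D4:**
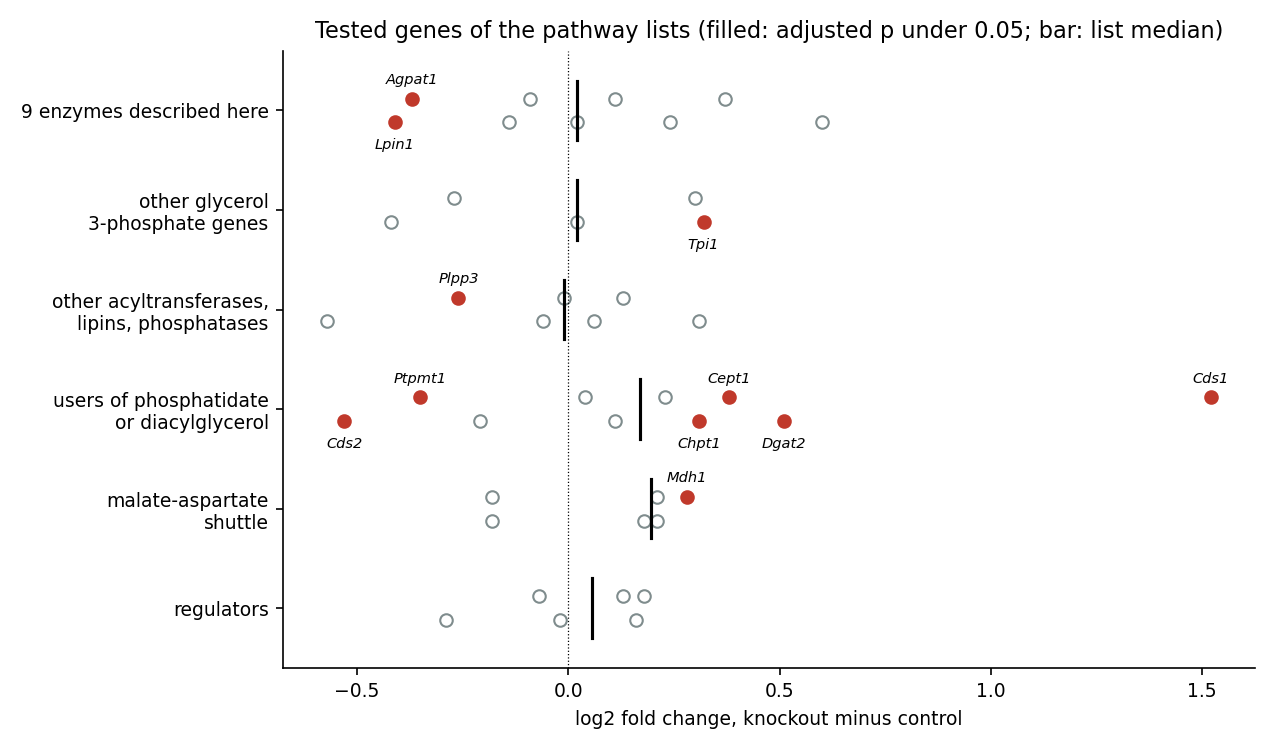
Log2 fold change, knockout minus control, of every tested gene among the 9 enzymes and the 5 neighbouring lists. Filled red points passed an adjusted p of 0.05, and a vertical bar marks each list's median. The list of users of phosphatidate or diacylglycerol also holds genes of later steps toward cardiolipin. Cds1 at 1.52 stands apart on the right, and Lpin1 and Agpat1 are the filled points among the 9 enzymes.

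Among other genes of glycerol 3-phosphate, 1 of 5 tested was higher and 0 lower (median 0.02). This was Tpi1, the isomerase that interconverts dihydroxyacetone phosphate, the substrate of Gpd1, at 561.6 ± 28.7 CPM in knockouts and 451.0 ± 29.5 CPM in controls (SD, n = 4 each; log2 fold change 0.32, edgeR adjusted p = 0.00792). Pgp, whose product removes phosphate from glycerol 3-phosphate, was at -0.27 (adjusted p = 0.0720) and did not pass. The glycerol kinase gene Gk had 1 to 6 reads in knockouts and 2 to 7 in controls and was not tested.

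In the malate-aspartate shuttle, the other route that carries electrons from cytosolic NADH into mitochondria, 1 of 6 tested genes was higher and 0 lower (median 0.20). The cytosolic malate dehydrogenase gene Mdh1 was at 487.7 ± 38.1 CPM in knockouts and 400.7 ± 44.3 CPM in controls (SD, n = 4 each; log2 fold change 0.28, edgeR adjusted p = 0.0322), with overlap between the groups. Its call ended without knockout 1 (0.0651), knockout 2 (0.0580), knockout 4 (0.138), control 1 (0.0852), control 3 (0.0848) or control 4 (0.100). Mdh2 did not overlap between the groups but did not pass (0.21, adjusted p = 0.0993).

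Among the other acyltransferase, lipin and phosphatase genes, 0 of 7 tested were higher and 1 lower (median -0.01). Plpp3, a lipid phosphatase of the cell surface, fell by the main test (log2 fold change -0.26, edgeR adjusted p = 0.0475), with overlap between the groups. Its call was lost in 8 of 17 alternatives: without knockout 2 (0.156), knockout 3 (0.0702), knockout 4 (0.146), control 3 (0.0938) or control 4 (0.0904), with DESeq2 (0.0552), without robust estimation (0.0538) and with the library number as a covariate (0.0635).

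Marker lists of other cell types were read beside these results. Of all tested genes 8.87% were called higher and 6.8% lower. Of the fast fibre markers 2 of 7 were lower, Myh4 (log2 fold change -0.31, edgeR adjusted p = 0.0128) and Mybpc2 (-0.25, adjusted p = 0.0471). Over the 7, 4 log2 fold changes were above 0 and 3 below (median 0.02), with Tnni2 highest at 0.27 (edgeR adjusted p = 0.0656). The call of Mybpc2 was lost in 6 of 17 alternatives: with the library number as a covariate (0.0668) and without knockout 2 (0.136), knockout 3 (0.0748), knockout 4 (0.127), control 3 (0.104) or control 4 (0.0953). Summed fast markers were 131400 to 139100 CPM in knockouts and 128000 to 148400 CPM in controls. Of the general muscle markers 2 of 6 were higher, Mb (0.87, adjusted p = 6.14e-05) and Acta1 (0.26, adjusted p = 0.0495). Endothelial markers had 0 of 5 called by edgeR, DESeq2 or limma voom (0 at an unadjusted p under 0.05), fibroblast markers 1 of 5 lower (Dcn at -0.27, adjusted p = 0.0387) and macrophage markers 2 of 4 lower (Cd163 at -0.75, adjusted p = 0.00478, and Csf1r at -0.59, adjusted p = 0.0392). The calls of Acta1, Dcn and Csf1r were lost in 11, 5 and 7 of 17 alternatives. That of Acta1 ended without any of the 4 knockouts (0.0566, 0.126, 0.0903 and 0.136) and without control 1 (0.133), control 3 (0.112) or control 4 (0.115). That of Dcn ended without knockout 3 (0.0571), knockout 4 (0.148), control 3 (0.125) or control 4 (0.0650). That of Csf1r ended without knockout 1 (0.0728), knockout 2 (0.119), knockout 4 (0.0954), control 2 (0.0859), control 3 (0.166) or control 4 (0.0637). Fibroblast markers summed to 352.2 to 435.9 CPM in knockouts and 426.0 to 525.5 CPM in controls, and macrophage markers to 24.8 to 40.3 CPM and 34.5 to 60.3 CPM. Of the brown fat markers, Ucp1 had 0 reads in every library, which allows up to 0.646 CPM at the floor of 3 reads, and Cidea stood at 6.29 ± 1.41 CPM in knockouts and 4.26 ± 0.856 CPM in controls (SD, n = 4 each), with overlap and no call (log2 fold change 0.55, unadjusted p = 0.0283, edgeR adjusted p = 0.121). The part of these cells in the falls of Lpin1 and Agpat1 was not tested.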

How the data were processed

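Each library came as 1 table of raw counts by Ensembl gene, not normalized by the authors, per the file headers. Tools listed in the submitters' processing notes were featureCounts, Subread 1.6.2 and Bowtie2 2.3.4.1, and the builds were GRCm38 and mm10. No source used here gives the annotation release, the strand setting or the treatment of multimapping reads. Names and coordinates came from GENCODE M21 (GRCm38), which matched 54495 of 54532 genes. Groups follow the genotype labels, and replicate numbers follow accession order and pair nothing. Library pairs of the same genotype differed beyond sampling noise (chi-square per degree of freedom 2.33 to 7.96), so all 8 were kept.

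In R 4.3.3, edgeR 4.0.16 kept 10691 genes by filterByExpr (minimum count 10, minimum total 15), scaled them by TMM and tested genotype with the robust quasi-likelihood F test, adjusted by Benjamini-Hochberg over all tested genes. SE was taken from the fold change and its F statistic, and 95% intervals use the degrees of freedom of the fit. Ratios were taken of reads plus 0.5 and tested by exact two-sided permutation over 70 arrangements. The floor of 3 reads covers counting error only. Alternatives used DESeq2 1.42.0, limma 3.58.1 voom, other scalings, filters and depths, and each library left out. Named genes were the 9 enzymes, Gpcpd1, up to 4 called genes of lowest p per list (2 of lowest p as values where none was called), markers that were called or moved with a result, and the 3 genes most like Gpd1 and Gpd2. The enzymes and lists were chosen with earlier results of these data known.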

Additional observations from a re-analysis of the deposited data

Results flagged for a closer look

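In 7 of 66 groups of 4 libraries, 1 library lay far from the other 3. Chance gives about 1 in 20 such groups. Control 4 accounted for 3 of them: Agpat1 at 123.2 CPM against 151.8 to 152.8 in the other controls, Lpin2 at 7.15 CPM against 2.58 to 3.04, and Ctdnep1 at 113.9 CPM against 147.4 to 152.9. Knockout 1 accounted for 2, with Tpi1 at 519.1 CPM against 569.2 to 579.2 in the other knockouts and the slow light chain gene Myl3 at 398.4 CPM against 148.1 to 171.5. Dgat2 stood at 17.9 CPM in control 1, against 20.7 to 21.1 in the other controls, and the myoglobin gene Mb at 3464 CPM in control 2, against 2769 to 2801. Without control 4 the log2 fold change of Agpat1 was -0.45.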

How the results depend on the processing

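Lpin1 and Agpat1 were lower and called in all 17 alternatives, with log2 fold changes from -0.49 to -0.37 and from -0.45 to -0.35. The knockouts' library numbers lie between those of the controls, so the library number as a linear covariate could move these fold changes little. Leaving out single libraries gave 2 to 3 called enzyme genes, with 0 to 1 of them higher, and Agpat3 ranged from 0.17 to 0.33, called only without knockout 1. No call among the other 6 enzymes changed where they were tested; the stricter filter on low counts left out Gpam, Agpat2 and Lpin2. The uncalled values of Gpd1 ranged from -0.04 to 0.07 and of Agpat2 from -0.06 to 0.29, so their signs are not fixed. The 1675 calls over all genes ranged from 1307 to 1835. Library totals alone gave 829 higher and 901 lower, against 948 and 727 with TMM, and the median log2 fold change of all genes was -0.03 against 0.008. With few reads, Gpam, Agpat2 and Lpin2 have wide intervals. No paired analysis was possible because the labels give the groups no shared replicate numbers.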

Other observations

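Plpp2, a lipid phosphate phosphatase gene of the same list as Plpp3, was left out of the main test by the filter on low counts. It had 2, 6, 3 and 1 reads in knockouts 1 to 4, against 16, 13, 14 and 6 reads in controls 1 to 4. In the edgeR fit without that filter, over 22813 genes, its log2 fold change was -2.05 (adjusted p = 0.000509). Adjusted p from that fit cannot be set beside those of the main edgeR test. They were far lower for Gpcpd1 (6.5e-88 against 2.13e-13) and Mb (1.29e-21 against 6.14e-05), and higher for Gpam (0.298 against 0.147). The value for Plpp2 rests on few reads and is uncertain. The other 6 genes of the neighbouring lists left out by the filter, Gk, Gk5, Gpat2, Lpin3, Slc25a13 and Pparg, did not pass in that fit, with adjusted p between 0.331 and 0.982.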
